A study of Oryza sativa with 9 samples.

Results

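The genes described here code for proteins of the plant cell surface that belong to the fasciclin, arabinogalactan, COBRA, extensin, glycine-rich and proline-rich groups. They were chosen by their annotation alone. A gene model was included where its deposited name or description held fasciclin, arabinogalactan, COBRA, extensin, proline-rich or glycine-rich cell wall, in any case, and was left out where it named a kinase. This gave 40 of 105692 models: 4 fasciclin, 3 arabinogalactan, 14 COBRA, 4 extensin, 1 glycine-rich cell wall and 14 proline-rich models. Of these, 30 carry an OS identifier of the rice annotation and 10 carry a running number, written here as, for example, model 7103. No model naming an extensin with leucine-rich repeats was among them. The label of a cell-surface protein does not hold for every member: 2 of the 14 proline-rich models were found through a proline-rich nuclear receptor coactivator motif, and 11 are described only as hydroxyproline-rich glycoproteins.

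RNA came from roots of 7-day-old rice (Oryza sativa, cultivar Dongjin), grown in soil at room temperature with 10 h of light and 14 h of dark a day. There were 3 libraries each of the wild type (WT), of dgk1 (labelled a knockout of diacylglycerol kinase 1) and of OE2 (labelled its overexpression line). All groups share the cultivar, age, tissue and growth conditions, and dgk1 and OE2 are 1 line each. The sources used here name neither the promoter behind OE2, the lesion in dgk1 nor the number of plants in a library. Repetitions are stated to be biological, and p-values set differences against a spread between repetitions that is estimated in 1 fit of all libraries. With 1 line each, they do not cover variation between lines of the same kind.

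Cell-surface hydroxyproline-rich proteins are secreted, have prolines turned into hydroxyproline and carry sugar chains on those residues. Arabinogalactan proteins bear large branched galactan chains, many are held at the plasma membrane by a glycosylphosphatidylinositol (GPI) lipid anchor, and fasciclin-like members add a domain first known from cell adhesion in insects. COBRA proteins are also GPI-anchored and, in Arabidopsis roots, are needed for the oriented growth of cells and for ordered cellulose. Extensins are rod-like wall proteins that peroxidases cross-link, and glycine-rich wall proteins are structural proteins known from vascular tissue.

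Depth was 8908397 to 12459460 fragments per library. Values are FPKM, that is, fragments per kilobase of model length at a common depth, so levels of different genes are per length. The diacylglycerol kinase gene OS04G0634700 was listed at 0 in all 9 libraries. Model 25546, a numbered diacylglycerol kinase model with the same span, stood at 0.707 ± 0.206 FPKM in WT, 7.33 ± 1.79 in dgk1 and 0.572 ± 0.0519 in OE2 (mean ± SD, n = 3), which goes against the labels, so every direction below is between libraries labelled dgk1, OE2 or WT. As a check of the tissue, no model carried a root-specific description, and of 3 Casparian strip membrane proteins, which mark the root endodermis, OS06G0231050 had 4.43 to 17.9 FPKM and OS02G0578366 1.56 to 7.76 FPKM over the libraries, while OS02G0743900 was listed at 0. Whether fewer cells of a type or less RNA per cell lies behind a lower level cannot be told apart in whole roots.

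In these roots 19 of the 40 models passed the filter, a level of 1 FPKM or more in 3 or more of the 9 libraries. A further 12 had fragments but stayed below it, and 9 were listed at 0 in every library. The 19 were 2 fasciclin, 3 arabinogalactan, 4 COBRA, 1 extensin, 1 glycine-rich and 8 proline-rich models. They lay on chromosomes 1, 2, 3, 5, 6, 8, 9 and 10. OS10G0450900, a structural glycine-rich wall protein annotated as GRP0.9, had the highest level. The summed level of the 40 models was 993 ± 24.9 FPKM in WT, 921 ± 36.6 in the libraries labelled dgk1 and 1069.6 ± 65.1 in those labelled OE2 (n = 3 each). Without OS10G0450900 the sum of the other 39 was 653 ± 40.5, 611 ± 40.4 and 659 ± 40.1 FPKM, so that gene carried most of the difference between OE2 and WT. The summed FPKM of every model was 737310 ± 46461 in WT and 770502 ± 9675 in OE2.

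**Figure D1:**
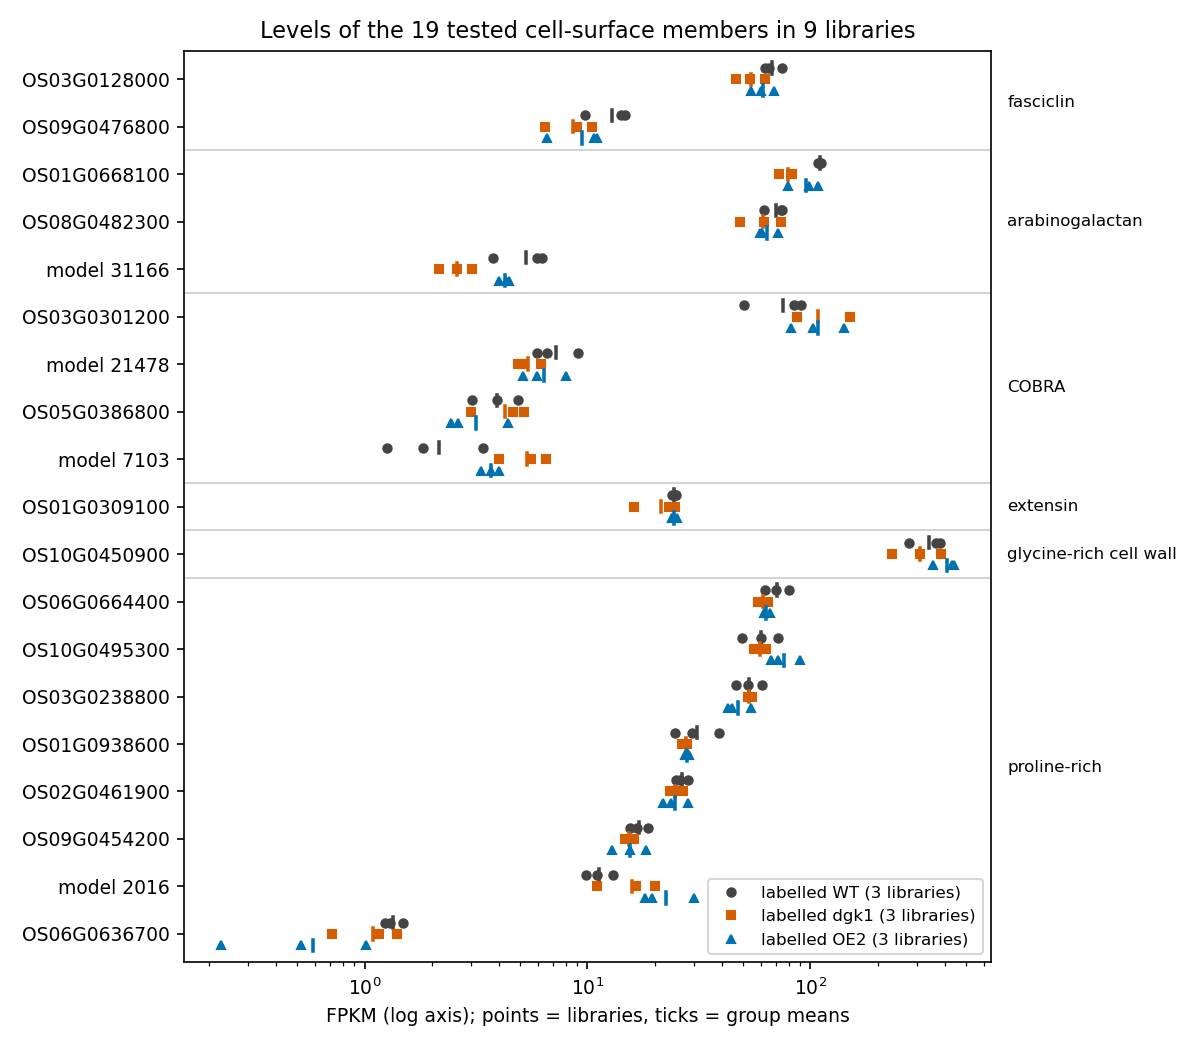
Level of the 19 tested models in each of the 9 libraries, in FPKM on a log axis, with each point 1 library coloured by its labelled group. OS10G0450900 lies highest, at 233 to 442 FPKM, and for most models the points of the 3 groups run into each other.

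No tested model of the group differed between the labelled lines at an adjusted p under 0.05 (limma on log2(FPKM + 1), Benjamini-Hochberg over all 22383 tested models). The count was 0 of 19 for dgk1 against WT, where 0.675% of all tested models passed. It was also 0 of 19 for OE2 against WT, where 6.96% passed, and 0 of 19 for OE2 against dgk1, where 6.36% passed. At an unadjusted p under 0.05 in limma, 4, 3 and 1 of the 19 passed in those comparisons, against 11.1%, 20.6% and 18.7% of all tested models. The 3 comparisons share libraries, and their values stand side by side for that reason.

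For dgk1 against WT, 13 of the 19 lay lower and 6 higher, with a median log2 fold change of -0.15, against -0.01 over all tested models. For OE2 against WT, 14 lay lower and 5 higher, with a median of -0.14 against 0.01. For OE2 against dgk1, 5 lay lower and 14 higher, with a median of 0.07 against -0.00. The libraries of the lines compared did not overlap for 4 of the 19 in dgk1 against WT, 2 in OE2 against WT and 3 in OE2 against dgk1, which is 21.1%, 10.5% and 15.8% of the 19. Of all tested models 15.5%, 24.3% and 26.7% did not overlap, so these shares lie near or below the background. In dgk1 against WT 1 of the 4 lay higher and 3 lower, where 8.39% and 7.09% of all tested models did. In OE2 against WT 1 lay higher and 1 lower (12.0% and 12.4% of all), and in OE2 against dgk1 2 lay higher and 1 lower (13.3% and 13.3%). The lower one in OE2 against WT, OS06G0636700, reached 1 FPKM in all 3 WT libraries but in only 1 OE2 library. It met the filter through the libraries where it is higher, so no difference is read from it. It is also among the 3 with an unadjusted p under 0.05 in limma. The 95% interval of the log2 fold change, not adjusted for the number of tests, was also set against a 2-fold change of FPKM + 1. It lay within that in both directions for 15 of the 19 in dgk1 against WT, for 15 in OE2 against WT and for 17 in OE2 against dgk1. Of all 22383 tested models 16747, 15469 and 15589 had such intervals, so most tested models did so too. On this scale changes of low genes are understated.

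**Figure D2:**
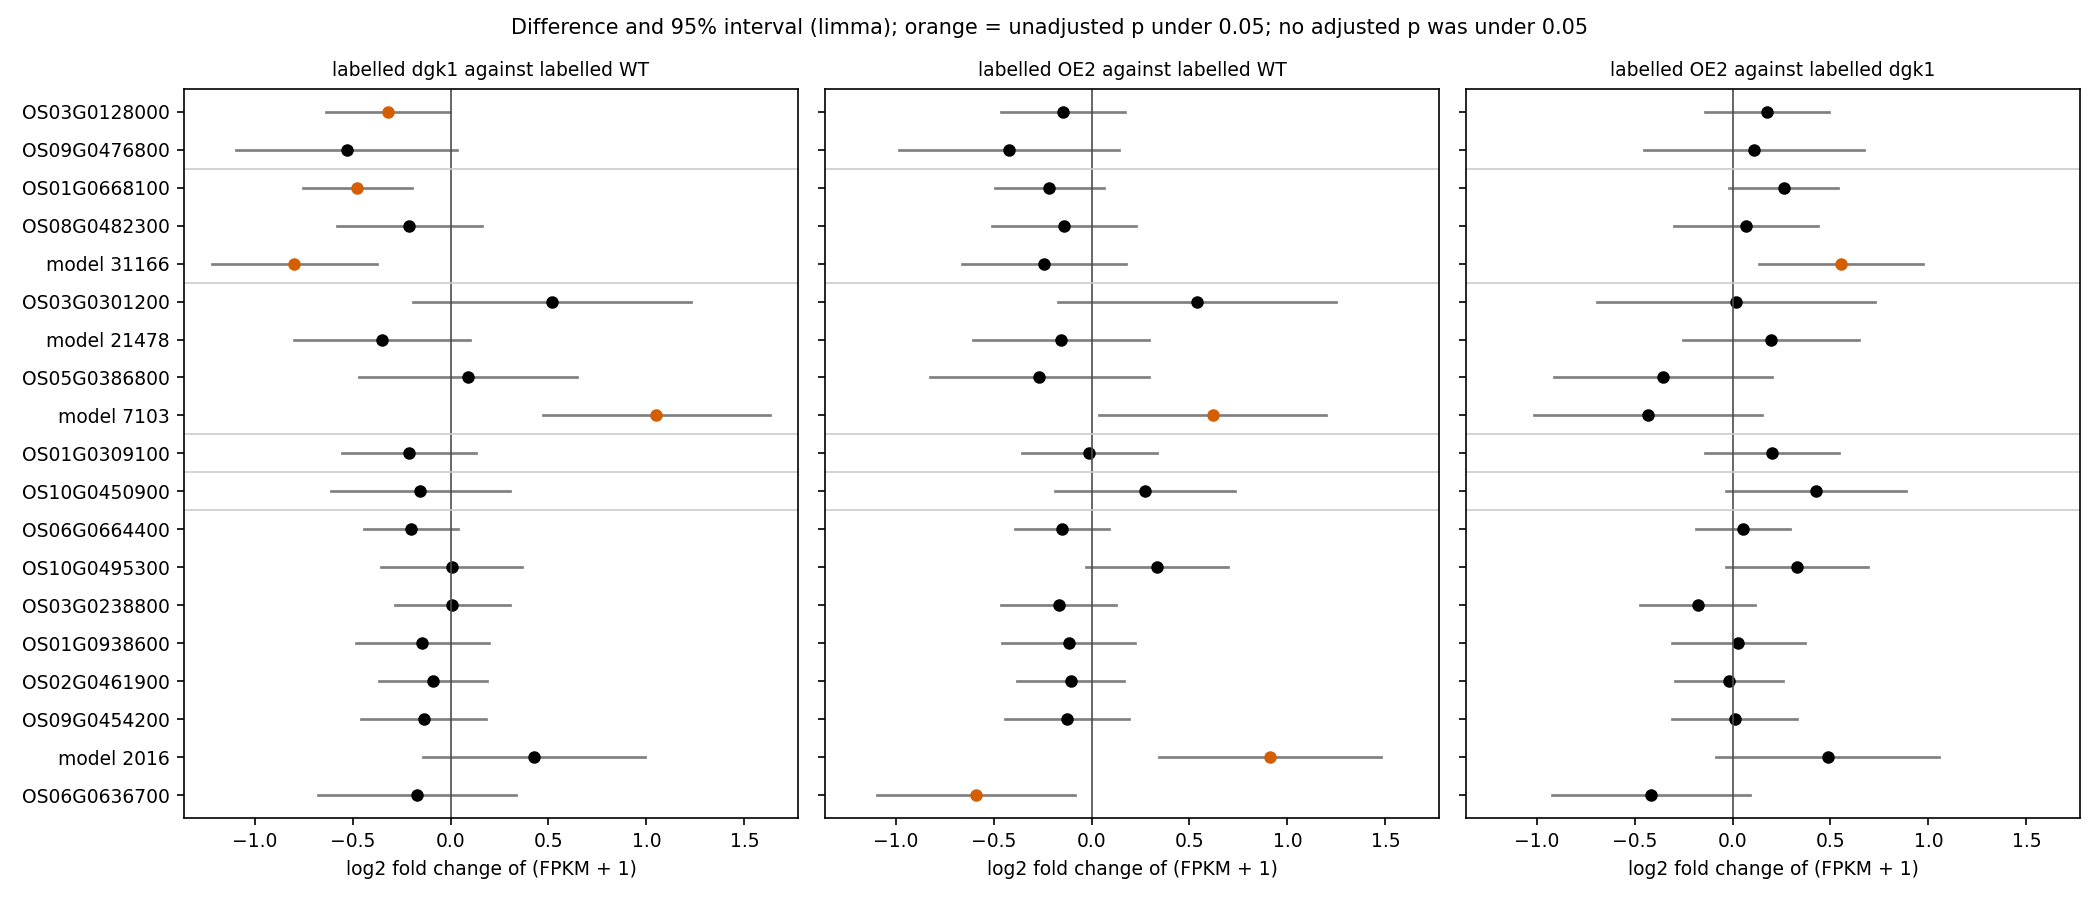
Log2 fold change of the 19 tested models, on the log2(FPKM + 1) scale, with 95% intervals, in 3 panels for dgk1 against WT, OE2 against WT and OE2 against dgk1; orange marks an unadjusted p under 0.05. The fasciclin and arabinogalactan models lie below 0 in both comparisons with WT, and no model has an adjusted p under 0.05.

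The 5 tested fasciclin and arabinogalactan models all had lower mean levels in the libraries labelled dgk1 than in WT, with a median log2 fold change of -0.48, and all lay lower in OE2 than in WT, with a median of -0.22. Between OE2 and dgk1 all 5 lay higher in OE2, with a median of 0.18. None passed limma's adjusted threshold, and they were grouped together after their values were seen. The summed level of the 3 arabinogalactan models was 186 ± 8.09 FPKM in WT, 143 ± 13.9 in dgk1 and 164 ± 19.9 in OE2. That of the 4 fasciclin models was 80.7 ± 8.42, 62.9 ± 6.77 and 70.7 ± 7.92 FPKM.

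OS01G0668100, an arabinogalactan protein-like gene on the minus strand of chromosome 1 at 27340911 to 27341950, was the highest of the 5. Its level was 112.0, 107.7 and 110.9 FPKM in WT, 82.7, 82.1 and 72.4 in dgk1, and 98.9, 79.5 and 108.2 in OE2. All dgk1 libraries lay below all WT libraries, while OE2 spanned from below dgk1 replicate 1 to above WT replicate 2. The mean of 79.1 ± 5.80 FPKM in dgk1 was 0.718 times that of 110.2 ± 2.22 in WT. The log2 fold change was -0.48 ± 0.12 (SE; 95% interval -0.75 to -0.20), with an adjusted p of 0.184 in limma. OE2, at 95.5 ± 14.7 FPKM, gave -0.22 against WT (adjusted p 0.368) and 0.26 against dgk1 (adjusted p 0.299).

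Model 31166 is described as an arabinogalactan peptide, a class of very short arabinogalactan proteins, and lies on the plus strand of chromosome 6 at 17984217 to 17987314. Its level was 6.23, 5.95 and 3.76 FPKM in WT, 2.60, 3.02 and 2.15 in dgk1, and 4.002, 4.44 and 4.31 in OE2. The dgk1 libraries were below all others, and WT and OE2 overlapped. It had the strongest test of the family between dgk1 and WT, with 2.59 ± 0.436 FPKM in dgk1 at 0.487 times the 5.31 ± 1.35 in WT. The log2 fold change was -0.80 ± 0.18 (95% interval -1.22 to -0.38) and limma's adjusted p was 0.142. Against dgk1, OE2 at 4.25 ± 0.225 FPKM was 1.64 times higher, with a log2 fold change of 0.55 ± 0.18 (95% interval 0.13 to 0.97) and an adjusted p of 0.142 in limma. These levels rest on 178, 98 and 127 fragments per group of 3 libraries. OS06G0505700 overlaps the model over 2666 bases on the same strand, 86.1% of the model's span. That gene had 1.31 ± 0.26 FPKM in WT, 1.19 ± 0.534 in dgk1 and 0.0462 ± 0.0800 in OE2. The share of the reads of model 31166 that belongs to that gene was not tested. That neighbour was at 0, 0 and 0.139 FPKM in OE2 and passed the filter only through WT and dgk1, with 67 fragments in all, so no call is read from it.

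OS08G0482300, annotated as arabinogalactan protein 1 and lying on the plus strand of chromosome 8 at 23847854 to 23848622, had 74.1, 74.9 and 62.2 FPKM in WT. It had 73.8, 48.5 and 61.9 FPKM in dgk1 and 59.2, 60.4 and 71.6 in OE2. The groups overlapped in every comparison. The log2 fold changes were -0.21 for dgk1 and -0.14 for OE2 against WT. The former was -0.05 without dgk1 replicate 2 and -0.35 without dgk1 replicate 1.

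OS03G0128000, fasciclin-like arabinogalactan protein 8, lies on the plus strand of chromosome 3 at 1579382 to 1580910. It had 74.4, 62.7 and 65.3 FPKM in WT, 62.35, 46.4 and 53.5 in dgk1, and 60.1, 68.9 and 54.3 in OE2. The dgk1 libraries lay below WT by a narrow margin, WT replicate 2 and dgk1 replicate 1 being nearly level, and OE2 overlapped both. The log2 fold change of dgk1 against WT was -0.32 ± 0.14, with a 95% interval of -0.64 to -0.0038 and an adjusted p of 0.444 in limma.

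OS09G0476800, described as like fasciclin-like arabinogalactan protein 2, is on the plus strand of chromosome 9 at 18257644 to 18258698. It had 14.7, 9.77 and 14.2 FPKM in WT, 6.42, 9.01 and 10.5 in dgk1, and 6.60, 10.7 and 11.05 in OE2. WT replicate 2 fell within the range of both other groups. The log2 fold change was -0.53 ± 0.25 for dgk1 against WT (limma adjusted p 0.484) and -0.42 for OE2 against WT (adjusted p 0.384). The other fasciclin models held little signal: model 4479, with a fasciclin domain, had 35 fragments over 9 libraries and model 39883 was listed at 0.

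Marker lists of other cell types are set beside these levels, and none of the lists held a call in dgk1 against WT. The green-tissue list of 40 photosystem, chlorophyll-binding and Rubisco models, 19 tested and 8 at 0 in all libraries, summed to 230 to 348 FPKM in WT, 165 to 218 in dgk1 and 237 to 339 in OE2. All 19 lay lower in dgk1 than in WT, with a median log2 fold change of -0.42 and no call in limma (unadjusted p under 0.05 for 4). In OE2 against WT 15 of the 19 lay lower, with a median of -0.35 and no call in limma (unadjusted p under 0.05 for 5). The histone H3 and H4 models, a list for dividing cells that also holds the replication-independent H3.3, with 16 models and 9 tested, summed to 2814 to 3401 FPKM in WT, 2298 to 2717 in dgk1 and 2075 to 2375 in OE2. All 9 lay lower in dgk1 than in WT (median -0.25, no call in limma, unadjusted p under 0.05 for 3). In OE2 against WT 8 lay lower, 2 of which fell, where 3.24% of all tested models fell, and limma's unadjusted p was under 0.05 for 6. Of all tested models 11.1% and 20.6% had an unadjusted p under 0.05 in limma for dgk1 and OE2 against WT. A wider Casparian strip list, which also holds CASP-like proteins, had 35 models and 21 tested. In dgk1 against WT 12 lay lower and 9 higher. In OE2 against WT 13 lay lower and 8 higher, and 1 rose, where 3.71% of all tested models rose. All 3 secondary-wall cellulose synthases, taken up below, had log2 fold changes below 0 for dgk1 and above 0 for OE2 against WT, with no call. WT replicate 1 lay above every OE2 library for each of them. OS10G0467800, for example, had 7.94, 3.42 and 2.28 FPKM in WT and 3.23, 6.14 and 3.90 in OE2, so no higher level in OE2 is read from them. The part of these lists in the arabinogalactan levels was not tested.

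**Figure D3:**
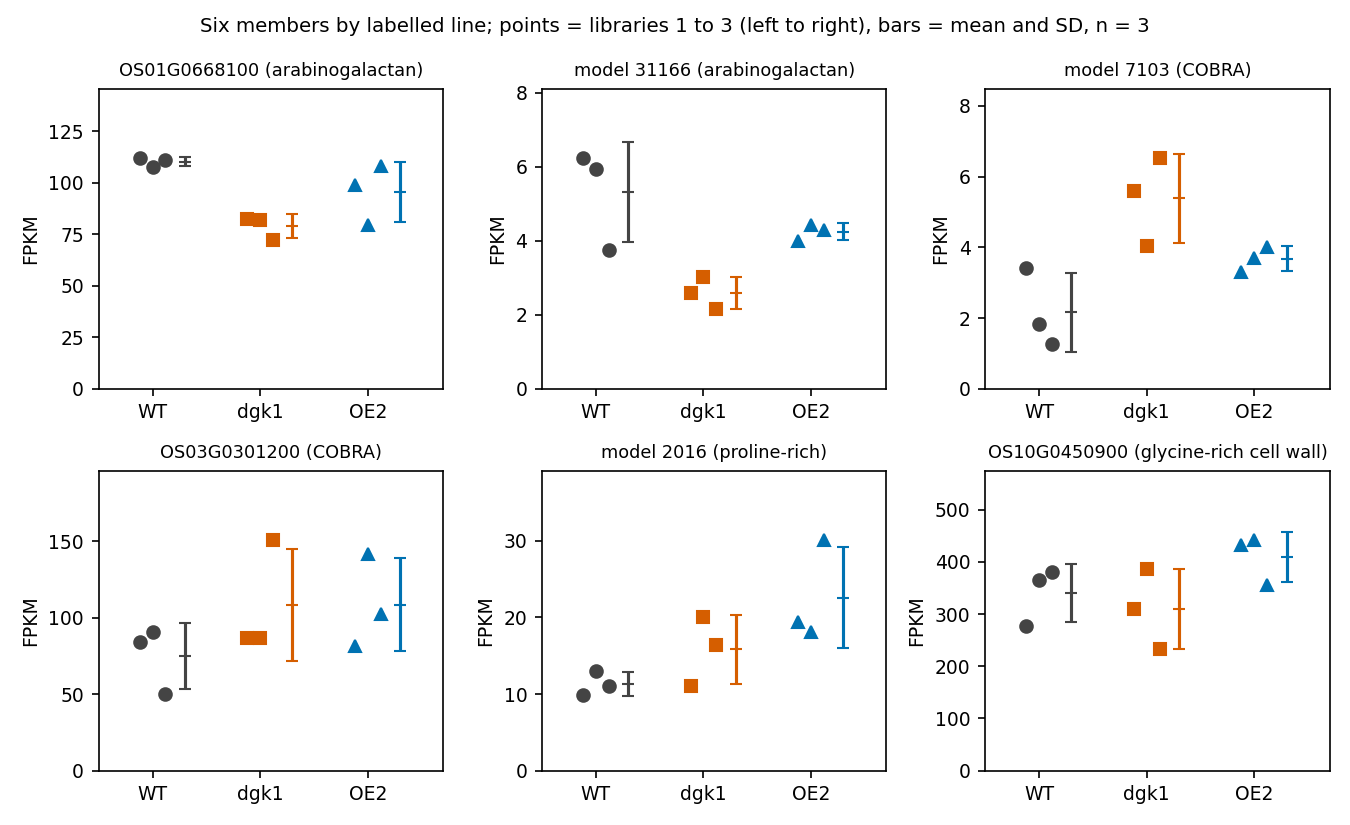
Level in FPKM of 6 models in each library of WT, dgk1 and OE2, with the mean and SD beside them (n = 3); each panel has its own axis from 0. OS01G0668100 and model 31166 have their dgk1 points below all WT points, while model 7103 has them above.

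Of the 14 COBRA models only 4 passed the filter, and only OS03G0301200, described as a putative COBRA-like protein 7, was abundant. Another gene, OS04G0540300 (BC1LP1), also carries the description COBRA-like protein 7 and reached at most 0.310 FPKM. OS03G0301200 lies on the plus strand of chromosome 3 at 10599142 to 10601525. It had 84.1, 90.8 and 50.2 FPKM in WT, 87.0, 86.9 and 150.8 in dgk1, and 81.6, 141.5 and 102.6 in OE2. Its libraries differed 3.005-fold from lowest to highest, with dgk1 replicate 3 and OE2 replicate 2 highest and WT replicate 3 lowest, and the groups overlapped. The means were 75.0 ± 21.8 FPKM in WT, 108.2 ± 36.8 in dgk1 and 108.6 ± 30.4 in OE2. The log2 fold change was 0.52 for dgk1 against WT (95% interval -0.19 to 1.23, limma adjusted p 0.603). It was 0.54 for OE2 against WT (95% interval -0.17 to 1.25, limma adjusted p 0.377). For dgk1 against WT it was 0.26 without WT replicate 3 and 0.26 without dgk1 replicate 3. For OE2 against WT it was 0.27 without WT replicate 3 and 0.33 without OE2 replicate 2. The summed level of 3 secondary-wall cellulose synthases, markers of xylem and fibre walls, was 16.2 FPKM in dgk1 replicate 3 and 24.5 in OE2 replicate 2, the highest in each of those groups. In WT that sum was 29.7, 12.2 and 8.32 FPKM in replicates 1, 2 and 3, so its highest library was not the one highest in OS03G0301200. The part of this sum in the level of OS03G0301200 was not tested.

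Model 7103, also described by a COBRA domain, had the largest log2 fold change of the family between dgk1 and WT. It lies on the minus strand of chromosome 10 at 18976155 to 18978379. Its level was 3.40, 1.83 and 1.26 FPKM in WT, 5.60, 4.03 and 6.52 in dgk1, and 3.31, 3.70 and 4.01 in OE2. The dgk1 libraries lay above all WT and all OE2 libraries, and WT replicate 1 lay within the OE2 range. The dgk1 mean of 5.38 ± 1.26 FPKM was 2.49 times the WT mean of 2.16 ± 1.11, a log2 fold change of 1.05 ± 0.25 (95% interval 0.47 to 1.63) with an adjusted p of 0.163 in limma. Without WT replicate 1 the log2 fold change was 1.32 and limma's adjusted p 0.0498, so that 1 library decides the call. OE2, at 3.68 ± 0.351 FPKM, gave 0.62 against WT (95% interval 0.04 to 1.20, limma adjusted p 0.213) and -0.43 against dgk1 (adjusted p 0.413). The fragments were 148 in WT, 439 in dgk1 and 233 in OE2, summed over 3 libraries each.

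The strand of model 7103 bears on what it counts. It lies opposite OS10G0497700, COBRA-like 4 (BC1L9), which is annotated on the plus strand at 18976009 to 18979062, and covers 72.9% of that gene's span. COBRA-like 4 itself was listed at 0 in all libraries. Model 7102, another COBRA-domain model on the plus strand at that place, had 3 fragments, all in dgk1 replicate 3, against 820 for model 7103. The sources used here do not say whether reads were counted by strand, so reads of COBRA-like 4 and of an antisense transcript cannot be told apart. The length of model 7103 equals its span of 2225 bases, a single block with no intron.

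**Figure D4:**
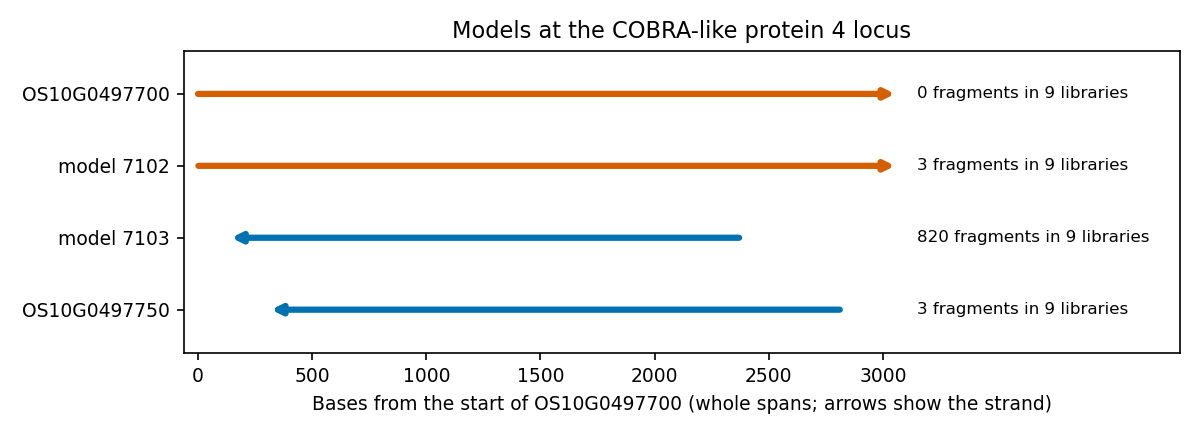
The COBRA-like 4 locus, drawn to scale by distance in bases from the first base of OS10G0497700, with each model's strand and its total fragments over the 9 libraries. Model 7103, on the minus strand, holds 820 fragments, while COBRA-like 4 on the plus strand holds 0, and model 7102 and the minus-strand OS10G0497750 hold 3 each.

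The remaining COBRA models were low. Model 21478, on the minus strand of chromosome 3 at 31124543 to 31127010, had 7.21 ± 1.65 FPKM in WT, 5.39 ± 0.722 in dgk1 and 6.38 ± 1.5003 in OE2, with overlapping groups. OS05G0386800, COBRA-like 3 (BC1L4), had 3.94 ± 0.913, 4.28 ± 1.151 and 3.15 ± 1.07 FPKM. OS05G0386700 lies on the opposite strand over 83.7% of its span, with 308 fragments and 0.961, 0.988 and 0.492 FPKM. Whether reads were counted by strand is not known here either. The gene of the brittle culm phenotype in rice, BRITTLE CULM1 (OS03G0416200, COBRA-like 5), whose product is needed for cellulose in mechanical tissue, was near the detection limit. It had 13, 3 and 31 fragments in WT, 6, 1 and 5 in dgk1, and 1, 4 and 3 in OE2, was below 1 FPKM in all but 1 library and was not tested. It was singled out for what is known of it, with its values seen. Its neighbour BC1L2 (OS03G0416300), which overlaps its end by 59 bases on the other strand, had 31, 44 and 24 fragments per group. BC1LP1 (OS04G0540300), also described as COBRA-like protein 7, had 18 fragments in all. Model 24730 covers 61.8% of its span on the same strand and held 1914 fragments, so BC1LP1 is not shown to be nearly silent. COBRA-like 1 (OS07G0604300), COBRA-like 6 (OS07G0604400), OS06G0685100 and model 34964 were listed at 0, and model 34962, with the same span as COBRA-like 1, had 11 fragments.

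The 1 extensin that was tested was nearly level in WT and OE2. OS01G0309100, on the plus strand of chromosome 1 at 11585607 to 11586480, had 24.7, 24.9 and 24.0 FPKM in WT, 24.7, 23.3 and 16.1 in dgk1, and 24.0, 23.9 and 25.1 in OE2. Of the 9 libraries 8 lay between 23.3 and 25.1 FPKM and dgk1 replicate 3 lay lower. Against WT the log2 fold change was -0.01 for OE2 (95% interval -0.35 to 0.33, limma adjusted p 0.983) and -0.21 for dgk1 (adjusted p 0.682). The other extensins, OS07G0105300, OS01G0594300 and OS07G0176500, had 12, 3 and 0 fragments over all libraries.

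The glycine-rich wall protein OS10G0450900 was the most abundant member, ranking 375 of 22383 tested models by mean level in WT. It lies on the minus strand of chromosome 10 at 16428860 to 16429924. Its level was 276, 366 and 380 FPKM in WT, 311, 386 and 233 in dgk1, and 433, 442 and 355 in OE2. The groups overlapped, with 2 OE2 libraries above all others. Log2 fold changes were -0.15 for dgk1 and 0.27 for OE2 against WT (limma adjusted p 0.850 and 0.493), and 0.43 ± 0.20 for OE2 against dgk1 (95% interval -0.03 to 0.89, limma adjusted p 0.302).

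Of the 8 tested proline-rich models 5 lay lower and 3 higher in dgk1 than in WT, and limma's unadjusted p was under 0.05 for none. The highest by WT mean was OS06G0664400, a hydroxyproline-rich glycoprotein, with 79.7, 62.6 and 69.7 FPKM in WT, 58.1, 60.6 and 64.5 in dgk1 and 62.3, 62.1 and 65.7 in OE2. WT replicate 1 was the highest library and the groups overlapped. Its log2 fold change for dgk1 against WT was -0.20 (limma adjusted p 0.534). OS10G0495300 had 59.7, 71.2 and 49.1 FPKM in WT, 55.6, 60.0 and 63.4 in dgk1, and 71.7, 89.4 and 66.3 in OE2. OE2 lay above all dgk1 libraries but overlapped WT, with a log2 fold change of 0.33 ± 0.16 against dgk1 (limma adjusted p 0.313). OS03G0238800, OS01G0938600, OS02G0461900 and OS09G0454200 had WT means of 53.2, 31.0, 26.4 and 17.0 FPKM.

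Model 2016 had the smallest adjusted p of the family, but its link to the cell surface is the weakest, since only the nuclear receptor coactivator motif names it. Its level was 9.82, 13.0 and 11.1 FPKM in WT, 11.1, 20.0 and 16.4 in dgk1, and 19.4, 18.1 and 30.1 in OE2. All OE2 libraries were above WT, and dgk1 overlapped both. The OE2 mean was 22.5 ± 6.58 FPKM against 11.3 ± 1.58 in WT, a log2 fold change of 0.91 ± 0.25 (95% interval 0.34 to 1.48) with an adjusted p of 0.0707 in limma. It overlaps OS01G0384800 on the same strand over 817 bases, 38.0% of its span on chromosome 1 from 16130515 to 16132663. That gene starts at the same base, ends at 16131331 and lies wholly inside the model, whose deposited length is 1553 bases. The gene held 8713 fragments over all libraries, against 2466 for model 2016. That gene had 80.95 ± 6.05 FPKM in WT, 115 ± 9.49 in dgk1 and 134 ± 9.58 in OE2, and it rose in OE2 against WT (log2 fold change 0.72 ± 0.10, limma adjusted p 0.0030). The share of the reads of model 2016 that belongs to that gene was not tested.

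OS06G0636700, described as like the anther-specific proline-rich protein APG, was chosen for mention after its values were seen. It had 1.49, 1.29 and 1.24 FPKM in WT, 1.40, 0.718 and 1.16 in dgk1, and 0.516, 1.015 and 0.227 in OE2. OE2 lay below WT in all libraries, at 7, 13 and 3 fragments against 18, 19 and 24, and the gene passed the filter only through the other groups and 1 OE2 library. The log2 fold change was -0.59 ± 0.22 (limma adjusted p 0.175), and no difference is read from it.

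The median coefficient of variation within a line was 13.8% over the 19 members and 20.1% over the 22383 tested models, given as a description. The 2 sets were not matched for level, so this is not read as a trait of the members. Among members it ran from 6.86% for OS06G0664400 to 36.5% for OS06G0636700, the lowest in WT level. Of the 9 members listed at 0, 5 share their span on the same strand with another model that has fragments, against 3 of the 19 tested members. Among them, model 18013 lies inside OS03G0160200, which had 30.1, 29.0 and 26.5 FPKM in WT, dgk1 and OE2. The same-strand models at OS07G0176500, OS07G0604300, OS10G0497700 and model 39883 held only 4, 11, 3 and 38 fragments over 9 libraries. OS10G0497700 also lies opposite model 7103, with 820 fragments. Where an overlapping model holds many fragments, a member listed at 0 is therefore not shown to be silent. The hydroxyproline-rich OS02G0515200, just below the filter with 183 fragments, shares its span with model 14854 at 3.94, 4.94 and 3.86 FPKM. Of the remaining proline-rich models OS02G0822000, OS06G0206100 and OS10G0116900 had 1 fragment each over all libraries and OS12G0224500 had 0. Model 5746 covers 99.8% of the span of OS10G0116900 on the same strand and held 324 fragments, so that gene is not shown to be nearly silent.

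Other genes of the pathway were matched by words in their descriptions. Of 55 glycosyltransferase models, 6 are named for xyloglucan or xylan and so act on other wall polymers. Many others are described only as protein O-fucosyltransferases or probable glucuronosyltransferases, so the list is wider than this pathway. Of the 55, 23 were tested and none was called by limma in any comparison. The unadjusted p was under 0.05 for 1 in dgk1 against WT, 2 in OE2 against WT and 2 in OE2 against dgk1. Among all tested models 0.675%, 6.96% and 6.36% were called and 11.1%, 20.6% and 18.7% had an unadjusted p under 0.05, so few calls would fall in a list of this size at the background share. The list includes the hydroxyproline O-galactosyltransferases, which add the first galactose to arabinogalactan proteins. GALT2 (OS08G0130900) had 11.02 ± 0.773 FPKM in WT, 10.5 ± 1.17 in dgk1 and 8.63 ± 0.510 in OE2, where limma's adjusted p against WT was 0.175. GALT3 (OS01G0328900) had 8.06 ± 0.830, 7.95 ± 0.643 and 8.54 ± 0.819 FPKM, and HPGT1 (OS08G0386700) had 19.8 ± 0.617, 20.1 ± 2.32 and 18.5 ± 2.63. Of 12 models matched by GPI 3 are themselves GPI-anchored proteins. Of the 9 others, which belong to the anchoring machinery, 2 transamidase components were tested, and neither was called or reached an unadjusted p under 0.05 in limma. The 2 prolyl 4-hydroxylase models were below the filter, and of 3 models of RALF peptides, which bind leucine-rich repeat extensins, 1 was tested and not called. Of 27 cellulose synthase models, 8 of them named cellulose synthase-like, 16 were tested and limma called none (unadjusted p under 0.05 for 1, 0 and 1 of them).

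Some peroxidases cross-link extensins. Of 161 peroxidase models, left after setting aside OS06G0601000, a regulator matched by the word, 72 were tested, and 1 rose in dgk1 against WT, 1 in OE2 against WT and 4 in OE2 against dgk1, while none fell. OS05G0162000 rose from 59.1 ± 5.76 FPKM in WT to 113 ± 20.8 in dgk1 (limma adjusted p 0.0459), a call lost in 9 of 12 alternative settings. OS04G0688500 rose from 40.6 ± 10.5 FPKM in WT to 93.3 ± 9.53 in OE2 (limma adjusted p 0.0043). OS05G0134700 stood at 461 ± 44.4 FPKM in dgk1 and 886 ± 14.6 in OE2 (limma adjusted p 0.0038). In WT it had 673, 892 and 614 FPKM, with replicate 2 inside the OE2 range. OS06G0547400 stood at 604 ± 25.6 in dgk1 and 1187 ± 149 in OE2 (limma adjusted p 0.0180, lost in 6 of 12 settings), with 655, 984 and 572 in WT. OS04G0423800 stood at 517 ± 33.4 FPKM in dgk1 and 665 ± 34.2 in OE2 (limma adjusted p 0.0363, lost in 9 of 12 settings), with 590, 612 and 601 in WT. Which peroxidases act on wall proteins is not annotated in the files. The shares that rose were 1.39%, 1.39% and 5.56% of the tested peroxidases, against 0.532%, 3.71% and 3.2% of all tested models, of which 0.143%, 3.24% and 3.15% fell. With 1, 1 and 4 calls these shares are not read as a result about peroxidases.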

How the data were processed

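Total RNA of 9 root libraries was sequenced on an Illumina platform. CASAVA 1.8 and HISAT2 are named, per the submitters' processing notes. Counter, build and annotation: not given in the sources used here; coordinates stand as listed. The deposited values were read as FPKM, since value times the deposited length was a whole multiple of 1 step per library (tolerance 0.01). These steps gave the fragments and depths, and the values already carry a scaling between libraries.

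limma 3.58.1 (R 4.3.3, statmod 1.5.0; intensity trend, robust variance) was run on log2(FPKM + 1) for models that reached 1 FPKM in 3 or more libraries, with all 9 libraries in 1 fit and the group as its term. This scale understates changes of low genes. Tests were two-sided, with calls at 0.05 after Benjamini-Hochberg adjustment. The fit was also run on simulated fragments with the same set spread for every model. That spread was not matched to these libraries, so no result here rests on it. In all 9 within-group pairs the libraries differed beyond counting error, so none was merged. Members and lists were chosen with earlier results of these data known. Genes were named by rule: called members, the 2 highest WT means and the smallest p per class and comparison, and members at 0 in 1 group and at 1 FPKM or more in another. Others named in the text stand outside it. Alternatives were other filters (none, 5 FPKM), a pseudocount of 0.1, a scaling to library totals, 6 libraries only, a replicate block, each library left out, and a narrower reading of proline-rich that left 26 members.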

Additional observations from a re-analysis of the deposited data

How the results depend on the processing

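Over 462 log2 fold changes of the 13 named members under the alternatives, 446 kept their direction and their side of the threshold, 15 reversed and 1 passed the threshold. No member was called under any alternative, the replicate block and the narrower reading of proline-rich included, except that dgk1 against WT had 1, model 7103, without WT replicate 1. The range over the libraries left out was therefore 0 to 1. With the replicate block 0 members were called in each comparison. The replicate numbers did not pair the libraries: same-numbered libraries had correlations of deviations from -0.161 to 0.0635 over 9 pairs, and the best match of a library in another group carried its own number in 3 of 18 cases. The block moved the calls over all models from 151 to 73 in dgk1 against WT, from 1557 to 1156 in OE2 against WT and from 1423 to 1129 in OE2 against dgk1.

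Some reversals were of changes near 0. Others were of changes about as large as the medians over the tested members, -0.15 for dgk1 and -0.14 for OE2 against WT. These were -0.15 for OS10G0450900 in dgk1 against WT and -0.16 for model 21478 in OE2 against WT. With values scaled to library totals, OE2 against dgk1 gave -0.086 for OS03G0301200, -0.051 for OS06G0664400 and -0.035 for OS08G0482300, where that scaling moved the median of all tested models to -0.09. With 1 library left out, the log2 fold change of dgk1 against WT ranged from -0.33 to 0.037 for OS10G0450900 and from -0.13 to 0.14 for OS10G0495300. That of OE2 against WT ranged from -0.032 to 0.0017 for OS01G0309100 and from -0.31 to 0.0012 for model 21478. That of OE2 against dgk1 ranged from -0.19 to 0.28 for OS03G0301200, from -0.088 to 0.21 for OS08G0482300 and from -0.067 to 0.32 for OS09G0476800. Over the 39 changes of the named members, 31 moved by over 1.5 times when 1 library was left out. The cause of each reversal was not tested. The median over the tested members stayed below 0 in both comparisons with WT, at -0.19 to -0.03 for dgk1 and -0.23 to -0.06 for OE2, and ran from -0.03 to 0.18 for OE2 against dgk1. The 12 members below the filter rest on 1 to 183 fragments over 9 libraries, and limma called none of them when no filter was used.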
